A study of Mus musculus with 9 samples.

Results

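Binding of Hoxa13 and Hoxa11 was examined in windows around a pair of genes that set the level of retinoic acid in the limb, Aldh1a2 on chromosome 9 from 70850000 to 71350000 and Cyp26b1 on chromosome 6 from 84250000 to 84800000 (build mm9). A peak is an interval that the authors' peak caller reported from chromatin immunoprecipitation and sequencing (ChIP-seq), and it was taken when its start lay in a window. This gave 98 of the 243649 deposited peaks, 47 in the Aldh1a2 window of 500 kb and 51 in the Cyp26b1 window of 550 kb. All tissue came from wild-type ICR mouse embryos. For Hoxa13, 11 pairs of autopods, the future hands and feet, were used at embryonic day 11.0 (E11.0), whole limb buds of a litter were used at E11.5, and the E12.5 library came from limb buds. Hoxa11 was mapped in E11.5 limb buds in replicates 1 and 2, and home-made antibodies served for both proteins. Each Hoxa13 stage is a single library with no replicate check. Tissue changes together with stage from E11.0 to E11.5, and the published procedure of the E12.5 library differs from that of the others, so stage, tissue and procedure cannot be told apart.

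Retinoic acid is made from vitamin A and acts through nuclear receptors that bind DNA. Aldh1a2 encodes the retinaldehyde dehydrogenase that carries out the last step of its synthesis in the embryo, and in the growing limb it is known for its expression in the flank beside the early bud and later in the mesenchyme between the digits. Cyp26b1 encodes the cytochrome P450 enzyme that breaks retinoic acid down in the distal limb bud, and mouse embryos without it have short, truncated limbs. Hoxa13 is needed to form the autopod, and Hoxa11 is needed for normal growth of the forearm and shank. In the RefSeq order of protein-coding genes (GRCm38.p6), Aldh1a2 (gene ID 19378) lies between Aqp9 and Polr2m, and Cyp26b1 (gene ID 232174) between Dysf and Exoc6b. No mm9 annotation was used here, so peaks are given by position and were not placed in a promoter, exon or intron of any of these genes.

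The 250 bases before the RefSeq start of each gene are shown because they are the promoters of the genes whose surroundings were examined. They were read from a RefSeq table of GRCm38.p6, each 5′ to 3′ on the gene's own strand, and both genes matched 1 entry. Capitals mark any match to TTTAT, the core preferred by posterior Hox proteins, to TAAT, the core of many homeodomain proteins, or to TTTATA, on either strand.
Aldh1a2: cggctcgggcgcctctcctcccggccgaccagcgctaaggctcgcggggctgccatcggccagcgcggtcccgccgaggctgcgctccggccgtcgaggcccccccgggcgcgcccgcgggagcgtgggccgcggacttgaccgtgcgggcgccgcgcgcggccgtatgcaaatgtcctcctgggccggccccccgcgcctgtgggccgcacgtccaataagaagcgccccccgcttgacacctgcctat
Cyp26b1: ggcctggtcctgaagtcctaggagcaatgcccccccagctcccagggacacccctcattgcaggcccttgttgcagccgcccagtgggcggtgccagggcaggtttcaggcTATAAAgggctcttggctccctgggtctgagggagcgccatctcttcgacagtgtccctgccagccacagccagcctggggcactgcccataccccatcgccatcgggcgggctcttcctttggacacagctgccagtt
The Cyp26b1 stretch held 1 TTTAT core, which lies inside TATAAA, the letters of a TATA box, and no TAAT. The Aldh1a2 stretch held none of these motifs. Over 32544 RefSeq promoters of the same length, 37.2% held TTTAT, 54.8% held TAAT and 12.3% held TTTATA. G and C made up 77.6% of the Aldh1a2 stretch and 64.8% of the Cyp26b1 stretch, against a median of 52.4%. Whether a peak covers either stretch was not examined, since the builds differ.

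Around Aldh1a2, the gene of retinoic acid synthesis, Hoxa13 had 23 peaks at E11.5 and 10 each at E11.0 and E12.5. Hoxa11 had 3 in replicate 1 and a single one in replicate 2. The whole Hoxa13 lists held 143460 peaks at E11.5, 50890 at E11.0 and 44699 at E12.5. Those of Hoxa11 held 2953 in replicate 1 and 1647 in replicate 2, so raw counts cannot be compared directly between lists. Overlapping peaks of the 5 lists merged to 29 sites, all of them with Hoxa13, which 0.521% of all 176371 merged sites of the series lack. There were 3 sites with Hoxa13 at all 3 stages (7.81% of all merged sites had this pattern), 3 that joined E11.0 to E11.5 (8.81%), 4 that joined E11.5 to E12.5 (9.80%) and 0 that joined E11.0 to E12.5 without E11.5 (1.12%). Of the sites with a single stage, 13 belonged to E11.5 (44.8% of the 29 sites, against 54.8% of all merged sites). Another 4 belonged to E11.0 (13.8%, against 10.9%) and 2 to E12.5 (6.90%, against 6.19%). Hoxa11 was found at 3 of the 29 sites (10.3%, 95% interval 2.19 to 27.4), where 1.95% of all merged sites had it, and both replicates met at 1 of them, a pattern of 0.578% of all merged sites. Without replicate 1, 1 of these 3 sites is left. Intervals are exact Clopper-Pearson intervals and cover counting error over peaks or sites, which are not replicates.

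**Figure D1:**
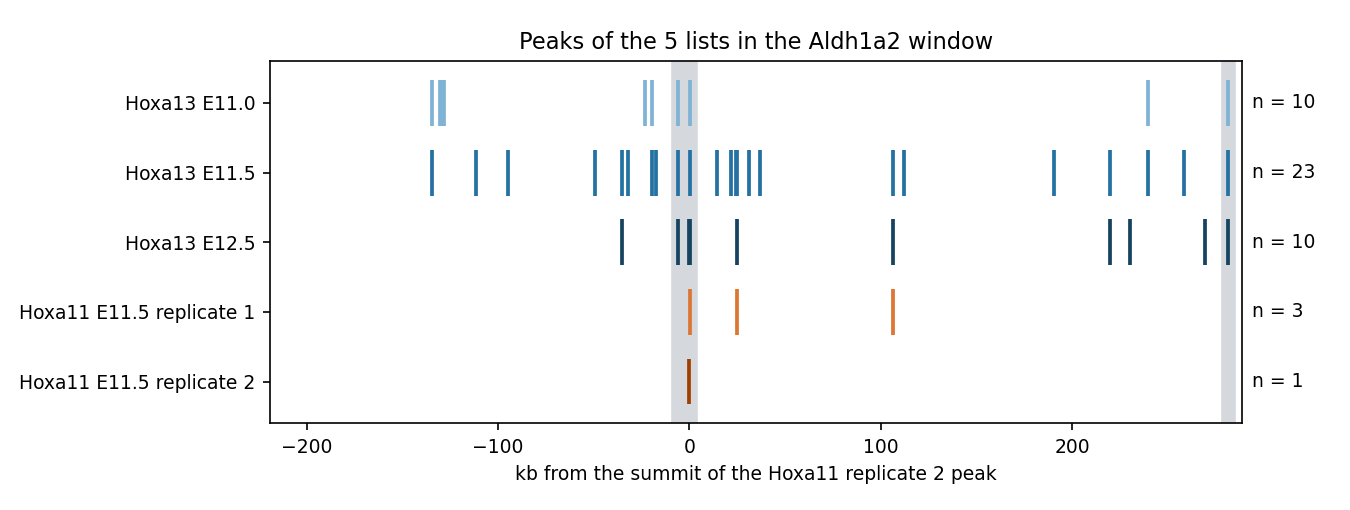
Peaks of the 5 lists in the Aldh1a2 window, against distance in kb from the summit of the Hoxa11 replicate 2 peak. Each line is the centre of 1 peak, drawn at a fixed thickness, and grey bands mark the 3 sites with Hoxa13 at all 3 stages, of which a pair near 0 merge into 1 band. All lists have a peak at 0, and the other 2 Hoxa11 peaks of replicate 1 stand over E11.5 and E12.5 peaks of Hoxa13.

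The site that all 5 lists share lay on chromosome 9 from 71064878 to 71065764. Hoxa13 occupied 71065080 to 71065411 at E11.0 and 71064976 to 71065764 at E11.5. At E12.5 it gave a pair of peaks, 71065029 to 71065320 and 71065440 to 71065696, which were 119 bp apart. Both of these lay inside the single E11.5 peak. Hoxa11 replicate 1 covered 71065107 to 71065616 and replicate 2 covered 71064878 to 71065345. The summit that the authors deposited for replicate 2, at 71065187, fell within a peak of each of the 5 lists, and the stretch that these 5 peaks had in common was 214 bp, from 71065107 to 71065320. Such sites of all 5 lists made up 282 of the 176371 merged sites (0.160%).

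By the values of its own list, the Hoxa11 peak at this shared site was above the middle of replicate 2. The authors' fold enrichment was 5.72 there, against a list median of 3.90, and ranked 203 of 1647 peaks. The deposited −log10 q-value was 17.8, against a median of 7.10, and the score ranked 200. The Hoxa13 peak of E11.5 was 789 bp wide, which placed it among the widest 0.781% of its list. At E11.0 the peak was 332 bp wide (widest 18.7%), and at E12.5 the pair measured 292 and 257 bp (widest 7.61% and 11.8%). Width is the only measure of a peak in the Hoxa13 lists, which hold no score, and a wide peak is not necessarily a strong one.

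A pair of further sites around Aldh1a2 joined Hoxa11 replicate 1 to Hoxa13 of the later stages. The first lay on chromosome 9 from 71089939 to 71090338, with its centre 24.95 kb above the deposited summit. There the E11.5 peak of Hoxa13 was 400 bp wide, and the E12.5 peak (71089998 to 71090295, 298 bp) and the Hoxa11 peak (71090075 to 71090328, 254 bp) lay inside it. The second lay from 71171264 to 71171617, 106 kb above the summit. Its peaks were 248 bp wide for Hoxa13 at E11.5, 226 bp at E12.5 and 324 bp for Hoxa11. Neither site had a peak of Hoxa13 at E11.0 or of Hoxa11 replicate 2. All 3 replicate 1 peaks of the Aldh1a2 window thus met a Hoxa13 peak of E12.5, where 48.8% of the whole replicate 1 list did. With 3 peaks the exact interval of that share runs from 29.2 to 100%. By its title the input library of Hoxa11 replicate 1 also served for Hoxa13 at E11.5, so no share is given for their overlap.

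**Figure D2:**
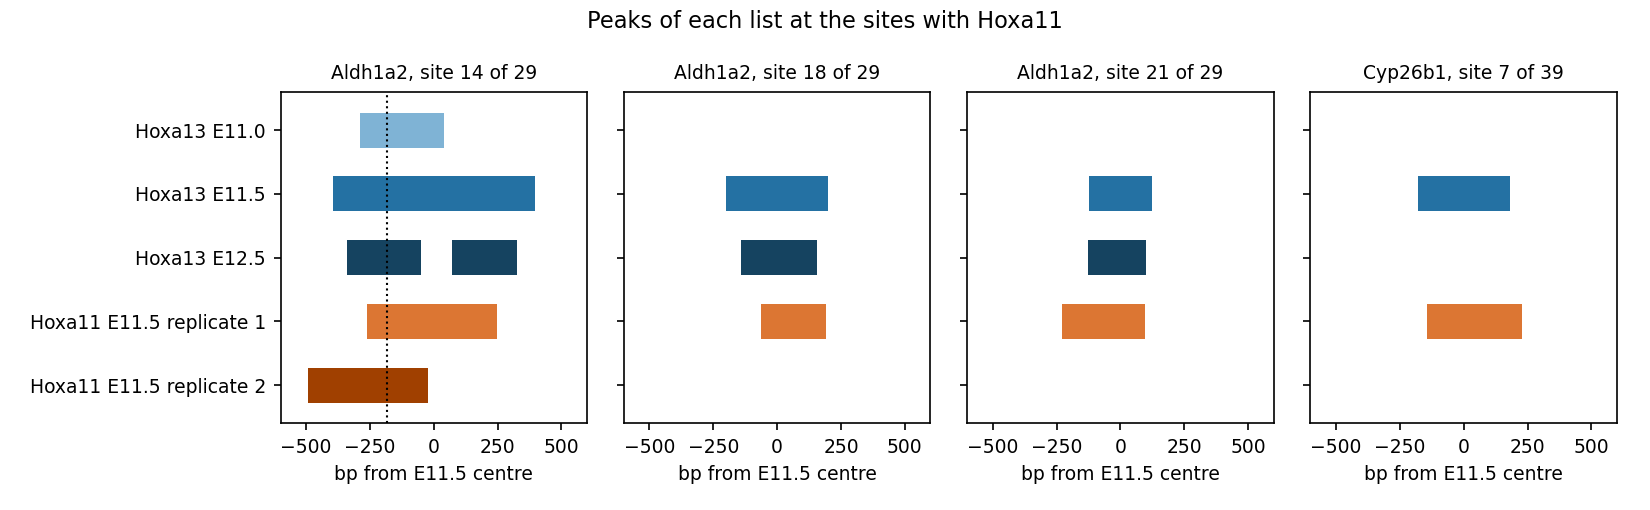
Peaks at the 4 sites with Hoxa11, drawn at their true width in bp from the centre of the Hoxa13 E11.5 peak, with 1 row for each list. The dotted line in the first panel is the deposited summit of Hoxa11 replicate 2, which crosses a peak of every list; the other panels have no peak of E11.0 or of replicate 2, and the Cyp26b1 panel has none of E12.5.

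The other Hoxa13 sites of all stages around Aldh1a2 carried no Hoxa11 peak, where 1.95% of all merged sites had one. One of them, from 71058966 to 71059527, had its centre 5.94 kb below the summit of the shared site. Its peaks were 341 bp wide at E11.0, 562 bp at E11.5 and 382 bp at E12.5, and the last was the widest E12.5 peak of the window (widest 2.75% of the list). Its E11.0 and E12.5 centres lay 86.5 and 68.0 bp above that of E11.5. The other, from 71345961 to 71346914, was 281 kb above the summit and close to the upper window edge. It held the widest E11.5 peak of either window, at 954 bp (rank 433 of 143460), but its peaks at E11.0 and E12.5 were only 213 and 196 bp wide.

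The rest of the Aldh1a2 sites had Hoxa13 at fewer stages. The site from 71304720 to 71305264 had the widest E11.0 peak of the window (380 bp, widest 10.7% of the list) and a 545 bp peak at E11.5, but none at E12.5. The second widest E11.0 peak, from 70935385 to 70935759 (375 bp), stood between other E11.0 peaks at 70934832 to 70935131 and 70937036 to 70937231. None of these 3 E11.0 peaks met a peak of another list, although an E11.5 peak of 203 bp lay just below them, from 70930774 to 70930976. The sites found at E12.5 alone were narrow, from 71295509 to 71295634 (126 bp) and from 71334624 to 71334775 (152 bp).

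Along the Aldh1a2 window, the 100 kb from 71000001 to 71100000, picked after the counts were seen, held 13 of the 29 sites, with 12 of 23 E11.5 peaks, 5 of 10 E12.5 peaks, 4 of 10 E11.0 peaks and 3 of the 4 Hoxa11 peaks. The longest stretches between sites were 78.0 kb, from 71177654 to 71255668, and 68.9 kb, from 71102383 to 71171264. The first site began 80.8 kb above the lower window edge, with no peak before it in the window. The median distance from a site to the next was 8.87 kb.

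Around Cyp26b1, the gene of retinoic acid breakdown, Hoxa13 had 35 peaks at E11.5, 10 at E11.0 and 5 at E12.5. These came from lists of 143460, 50890 and 44699 peaks in the same order. The Hoxa11 replicates had 1 peak and 0 peaks in turn. The peaks merged to 39 sites, of which 27 (69.2%, 52.4 to 83.0) had Hoxa13 at E11.5 alone, against 54.8% of all merged sites. There were 3 sites of all 3 stages (7.69%, against 7.81% of all merged sites). Another 4 joined E11.0 to E11.5 (10.3%, against 8.81%), and 1 joined E11.5 to E12.5 (2.56%, against 9.80%). A further 3 sites belonged to E11.0 alone (7.69%, against 10.9%) and 1 to E12.5 alone (2.56%, against 6.19%). The exact interval of each of these shares includes the share over all merged sites.

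**Figure D3:**
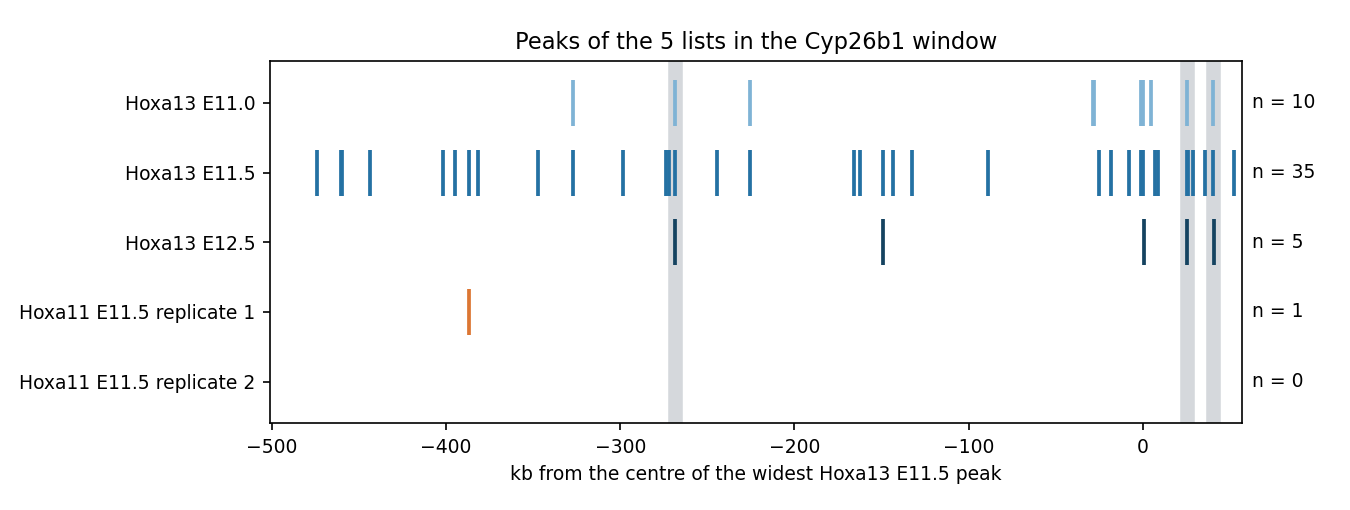
Peaks of the 5 lists in the Cyp26b1 window, against distance in kb from the centre of its widest Hoxa13 E11.5 peak. Each line is the centre of 1 peak, drawn at a fixed thickness, and grey bands mark the 3 sites with Hoxa13 at all 3 stages. E11.5 peaks are spread along the window with some long gaps, 7 of 10 E11.0 peaks lie in its last 100 kb, and Hoxa11 has 1 peak, far to the left.

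At 3 Cyp26b1 sites Hoxa13 was found at all stages. The first lay on chromosome 6 from 84478222 to 84478612, with peaks of 262 bp at E11.0, 391 bp at E11.5 and 182 bp at E12.5. The second, from 84772219 to 84772558, had peaks of 187, 340 and 111 bp in the same order, and the last, from 84787385 to 84787818, of 280, 434 and 135 bp. Their E12.5 peaks of 111 to 182 bp compare with 196 to 382 bp at the all-stage sites around Aldh1a2, a difference that was not tested. None of these 3 Cyp26b1 sites met Hoxa11, which was found at 1.95% of all merged sites. That share was not computed for sites of all 3 stages alone.

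The widest Cyp26b1 peaks of Hoxa13 at E11.5 and E11.0 overlapped, while that of E12.5 lay elsewhere. At E11.5 the widest ran from 84746707 to 84747399 (693 bp, widest 1.52% of the list), and the widest E11.0 peak, from 84746810 to 84747151 (342 bp), lay inside it. The nearest E12.5 peak, from 84747636 to 84747745 (110 bp), began 236 bp beyond the site, so it was counted as E12.5 alone. Merging peaks up to 500 bp apart joined it to the site and raised the Cyp26b1 sites with all stages from 3 to 4. A further site of E11.0 and E11.5, from 84745675 to 84746059, was the neighbour on the other side. The second widest E11.5 peak, from 84419583 to 84420040 (458 bp), met an E11.0 peak of 227 bp. The second widest E11.0 peak, from 84521333 to 84521630 (298 bp), met an E11.5 peak of 241 bp whose upper end, at 84521678, opened a stretch of 59.2 kb without sites. The widest E12.5 peak, from 84597702 to 84597889, measured 188 bp and lay inside a 376 bp peak of E11.5.

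Hoxa11 was seen at 1 of 39 Cyp26b1 sites (2.56%, 0.0649 to 13.5), where 1.95% of all merged sites had it. No Cyp26b1 site had Hoxa11 of both replicates, a pattern of 0.578% of all merged sites. The site with Hoxa11 lay from 84360081 to 84360487. The Hoxa11 replicate 1 peak (84360117 to 84360487, 371 bp) overlapped a Hoxa13 E11.5 peak of 358 bp (84360081 to 84360438). Hoxa13 had no peak there at E11.0 or E12.5, and replicate 2 had none in the window. Such an absence was common, since 79.1% of all windows of 550 kb held no replicate 2 peak. Without replicate 1, no Cyp26b1 site has Hoxa11. The nearest replicate 2 peaks began 1845 kb below the lower edge and 1883 kb above the upper edge.

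The last 100 kb of the Cyp26b1 window, from 84700001 to 84800000 and also picked after the counts were seen, held 17 of its 39 sites, with 7 of 10 E11.0 peaks, 13 of 35 E11.5 peaks and 3 of 5 E12.5 peaks. No Hoxa11 peak lay there. It followed a stretch of 60.0 kb without a site, from 84658223 to 84718271.

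The number of Hoxa13 peaks was common for windows of these lengths. Non-overlapping windows of 500 kb across chromosomes 1 to 19, X and Y had at least as many peaks as the Aldh1a2 window in 58.7% of cases for E11.5, 42.0% for E11.0 and 36.1% for E12.5. For Cyp26b1 and windows of 550 kb, 36.4% had as many for E11.5, 47.8% for E11.0 and 75.3% for E12.5. Every Hoxa13 count lay within or at the quartiles of its windows. At least 3 peaks of Hoxa11 replicate 1, the number around Aldh1a2, were found in 4.58% of windows, and at least 1 peak of replicate 2 in 19.3%. At least 1 peak of replicate 1, the number around Cyp26b1, was found in 34.2%. Limiting each Hoxa13 list to its 44699 widest peaks, the length of the shortest list, left 7 E11.5, 9 E11.0 and 10 E12.5 peaks around Aldh1a2. Around Cyp26b1 it left 16, 8 and 5 in the same order. At that length E11.5 thus had the fewest peaks of the 3 stages around Aldh1a2 and the most around Cyp26b1. Shares of windows were not computed for the cut E11.0 and E11.5 lists, so this order of stages has no background beside it.

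**Figure D4:**
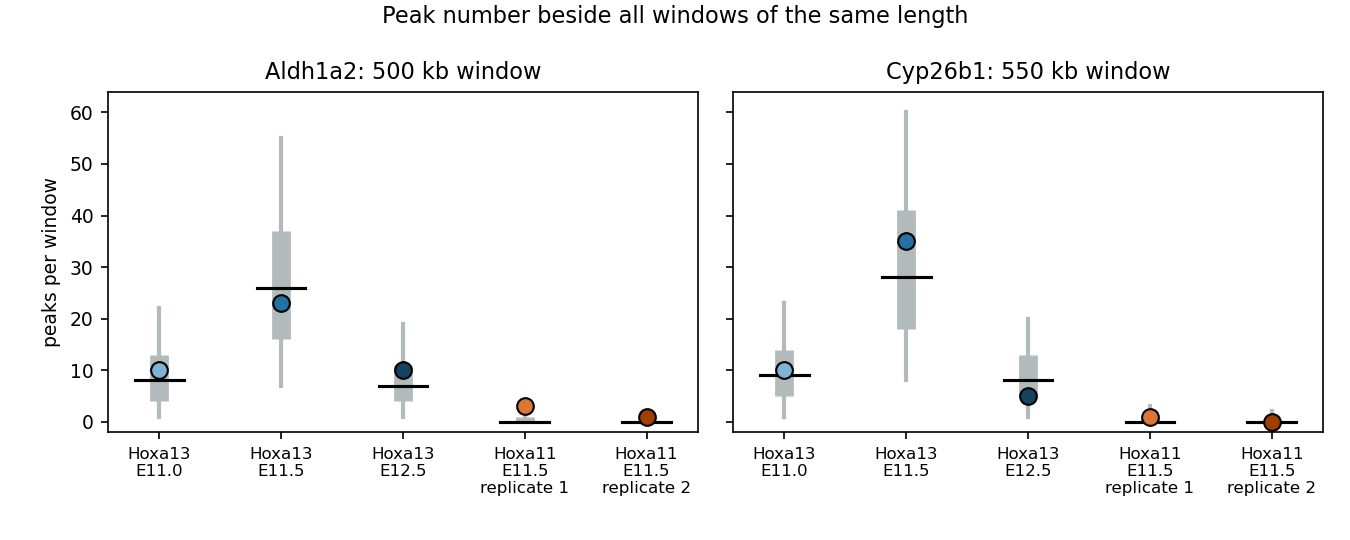
Peaks per window for each list (points) around Aldh1a2, 500 kb, and Cyp26b1, 550 kb. Grey lines span the 5th to 95th percentile and grey boxes the quartiles of all windows of that length, with the median in black; Hoxa13 points lie inside the boxes or, for Cyp26b1 at E12.5, on the edge, and the 3 Hoxa11 replicate 1 peaks around Aldh1a2 lie above the 95th percentile of 2.

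Sharing of Hoxa13 peaks between stages was read against the whole lists. Of the E11.5 peaks around Aldh1a2, 7 of 23 met an E12.5 peak (30.4%, 13.2 to 52.9), and around Cyp26b1 4 of 35 did (11.4%, 3.20 to 26.7), with 21.7% in the whole list. The intervals of the loci overlap and both include the whole-list share. An E11.0 peak was met by 6 of 23 E11.5 peaks around Aldh1a2 (26.1%, 10.2 to 48.4) and 7 of 35 around Cyp26b1 (20.0%, 8.44 to 36.9), against 20.5%. In the other direction, 8 of 10 E12.5 peaks around Aldh1a2 (80.0%, 44.4 to 97.5) and 4 of 5 around Cyp26b1 (80.0%, 28.4 to 99.5) met E11.5, against 70.7%. E11.0 peaks met E11.5 in 6 of 10 and 7 of 10 cases, against 58.1%, and met E12.5 in 3 of 10 cases at each locus, against 30.7%. Of the E12.5 peaks, 3 of 10 around Aldh1a2 and 3 of 5 around Cyp26b1 met E11.0, against 35.6%. When 50% of both peaks had to overlap, E12.5 peaks met E11.5 in 3 of 10 cases around Aldh1a2 and 1 of 5 around Cyp26b1, against 29.6% of the whole list under the same rule. By construction, this rule leaves out any E12.5 peak less than 50% as wide as the E11.5 peak around it. E11.5 peaks then met E12.5 in 13.0% of cases (2.78 to 33.6) around Aldh1a2 and 2.86% (0.0723 to 14.9) around Cyp26b1, against 9.23%. Among the widest 44699 peaks per stage, 4 of 7 E11.5 peaks around Aldh1a2 (57.1%, 18.4 to 90.1) and 4 of 16 around Cyp26b1 (25%, 7.27 to 52.4) met E12.5, against 42.0%. E11.0 was met by 4 of 7 and 5 of 16 of them, against 35.7%.

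Hoxa13 peaks with a neighbour of the same list within 10 kb made up 8 of 10 E11.0 peaks around Aldh1a2 (80.0%, exact interval 44.4 to 97.5) and 5 of 10 around Cyp26b1 (50%, 18.7 to 81.3), against 46.2% of the whole list. At E11.5 they were 14 of 23 (60.9%, 38.5 to 80.3) and 26 of 35 (74.3%, 56.7 to 87.5), against 73.4%. At E12.5 they were 3 of 10 around Aldh1a2 and 0 of 5 around Cyp26b1, where the exact interval reaches 52.2%, against 40.5%. The 8 neighbouring E11.0 peaks around Aldh1a2 formed a group of 4 between 70930781 and 70937231, a pair at 71041875 and 71045281, and a pair at 71059163 and 71065080. Neighbouring peaks count each other, so these cases are not independent. The exact intervals treat them as independent and do not allow for such groups.

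Peak widths around the genes were set beside those of the whole lists. At E11.5 the Aldh1a2 peaks ran from 203 to 954 bp with a median of 283, and the Cyp26b1 peaks from 209 to 693 bp with a median of 302, against 286 bp for the list. At E12.5 the median was 211 bp around Aldh1a2 (126 to 382) and 135 bp around Cyp26b1 (110 to 188), on either side of the list median of 154 bp. At E11.0 the medians were 311.5 and 246.5 bp, against 245 bp. The Hoxa11 peaks of replicate 1 measured 254, 324 and 510 bp around Aldh1a2 and 371 bp around Cyp26b1, and the replicate 2 peak 468 bp, with 283 bp as the median of either list.

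**Figure D5:**
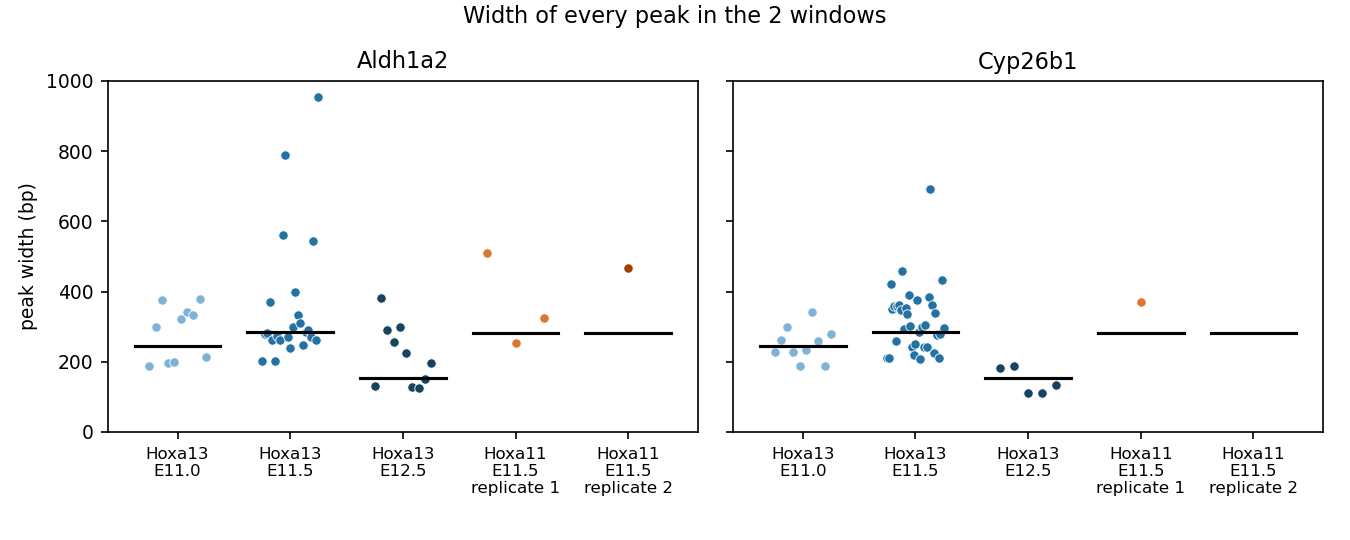
Width in bp of each of the 98 peaks, by list, for Aldh1a2 (left) and Cyp26b1 (right); black bars are the medians of the whole lists. A few E11.5 peaks stand far above the rest, the highest at 954 bp around Aldh1a2 and 693 bp around Cyp26b1, and E12.5 peaks reach 382 bp on the left and 188 bp on the right.

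The window edges left out nearby Hoxa13 peaks. Just below the Cyp26b1 window, peaks of all 3 stages lay together at 84237843 to 84238230 (E11.0), 84237656 to 84238280 (E11.5) and 84237990 to 84238191 (E12.5), and began about 12 kb from the edge. The first peak inside was of E11.5, from 84272723 to 84272933. At its upper edge, the last E11.5 peak inside began at 84799328 and the first outside at 84805959. Below the Aldh1a2 window, the nearest peaks were of E11.5 (70822182 to 70822564) and E12.5 (70822340 to 70822491), 27.8 and 27.7 kb away, and the first inside was that of E11.5 at 70930774. Above it, the next E11.5 peak began 10.8 kb beyond the edge, at 71360805.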

How the data were processed

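ChIP-seq peak lists of 5 libraries were analysed, and the 4 input libraries were not analysed here. Per the submitters' processing notes, build mm9 and the tools MACS2 2.1.0, Bowtie2 2.2.2 and CASAVA 1.4 were used. Thresholds, duplicate handling and use of the input are not given in the sources used here. The authors deposited 1 list per library. Those of Hoxa13 and of Hoxa11 replicate 1 hold positions alone. That of replicate 2, in narrowPeak order, adds 3 kinds of value by the authors. The authors' score is 10 times the q-value's −log10, cut to a whole number (checked in 100% of peaks). The authors' fold enrichment is a ratio to background. The −log10 of the p-value and q-value is also deposited. Read depth is unknown and cannot be read from the number of peaks.

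Positions are printed 1-based. Peaks met when they shared at least 1 bp, and overlapping peaks of all lists were merged to sites (Python 3.11.15, pandas 2.3.3). Overlap and merging were tested on simulated lists. Windows of the same length were tiled between the first and last E11.5 peak of each chromosome. With 1 library per Hoxa13 stage, and peaks not being replicates, no test was made. Labels do not say whether the Hoxa11 replicates are separate litters. Peak lists cannot show whether the labelled tissue is right. Sites named were those with Hoxa11, those with Hoxa13 at all 3 stages, the 3 widest Hoxa13 peaks per stage and locus, and the peaks nearest the edges; other sites were named after their values were seen. A wider list of retinoic acid genes was not used, as it needs an mm9 annotation. Members, lists and alternatives were chosen with earlier results of these data known.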

Additional observations from a re-analysis of the deposited data

How the results depend on the processing

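Shorter lists hold fewer peaks by construction. A peak less than 50% as wide as another also cannot meet it under 50% reciprocal overlap, even when it lies inside it. The whole lists had median widths of 154 bp at E12.5 and 286 bp at E11.5. Beyond these points, the cause of the changes below was not tested. The upper 50% of each list was kept by width or, for replicate 2, by score. This left 6 E11.0, 10 E11.5 and 6 E12.5 peaks around Aldh1a2 and 5, 21 and 2 around Cyp26b1. The 2 E12.5 peaks left around Cyp26b1 met E11.5 (100%), and no whole-list share was computed for this setting. With the widest 44699 peaks per stage, E11.0, E11.5 and E12.5 had 9, 7 and 10 peaks around Aldh1a2 and 8, 16 and 5 around Cyp26b1. Merged sites then fell to 17 and 20. Of the E11.5 peaks around Aldh1a2, 57.1% met E11.0 and the same share met E12.5 (whole lists at that length, 35.7% and 42.0%). With 50% reciprocal overlap, 13.0% of E11.5 peaks met E12.5 around Aldh1a2 and 2.86% around Cyp26b1, against 9.23% of the whole list, and 30% and 20% of E12.5 peaks met E11.5, against 29.6%. Leaving out each Hoxa11 replicate gave 1 to 3 sites with Hoxa11 around Aldh1a2 and 0 to 1 around Cyp26b1, the lower value without replicate 1. Counting peaks with any base in the window, or merging peaks up to 500 bp apart, kept every count within 1.5 times its value. No paired analysis was possible because only the Hoxa11 libraries carry replicate numbers and no result comes from a test. Few peaks per locus leave wide intervals (3 of 10 peaks gives 6.67 to 65.2%). Some shares changed when only the widest 44699 peaks per stage were kept, a setting that alters list length and peak width together. The effect of read depth, which is unknown, was not tested.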
